A study of Mus musculus with 4 samples.

Results

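GSK-J4 was compared with its vehicle DMSO in female mouse ESCs that received no ascorbic acid (AA), across all genes expressed in either library. A gene was included if its FPKM (fragments per kilobase of exon, scaled by the mapped fragments of the library) was at least 1 in either library, and 9196 of the 9936 gene names in the deposited tables met this rule. The study treated LF2 ESCs, a female line of the 129/J strain, for 24 hr and sequenced 1 library for each of 4 conditions. PBS+DMSO and PBS+GSK-J4 are compared here, where PBS is the vehicle of AA and GSK-J4 was used at 10 µM. AA+DMSO and AA+GSK-J4, with 50 µg/ml AA, share no library with them and are given alongside. The cells were cultured on feeder cells and then passaged without them before treatment. There is 1 library per condition, so differences between the libraries are described without a test.

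GSK-J4 is a cell-permeable compound that inhibits histone demethylases of the JmjC family, among them Utx and Jmjd3, which remove methyl groups from lysine 27 of histone H3. That mark is written by the Polycomb complex PRC2 and is found at silent developmental genes in ESCs. JmjC enzymes need iron and 2-oxoglutarate, as do the TET enzymes that oxidise methylated DNA and the prolyl hydroxylases. ESCs divide rapidly, and cells under nutrient or protein folding stress can switch on the transcription factor ATF4, which with C/EBP partners binds an element in the promoters of amino acid and stress genes.

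Stretches of promoters with that element, the C/EBP-ATF response element (letters TGATGNAA, searched on both strands), are shown for 7 genes at least 2-fold higher with GSK-J4, followed by 3 genes that also hold it and were less than 2-fold different. The sequences are from RefSeq on GRCm38.p6, read 5′ to 3′ on the strand of the gene, and capitals mark the element.
Nupr1: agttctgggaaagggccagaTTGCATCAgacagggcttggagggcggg
Atf3: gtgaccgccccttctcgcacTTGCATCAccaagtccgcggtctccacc
Chac1: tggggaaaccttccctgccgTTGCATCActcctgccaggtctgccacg
Jdp2: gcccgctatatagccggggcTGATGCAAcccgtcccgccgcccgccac
Pck2: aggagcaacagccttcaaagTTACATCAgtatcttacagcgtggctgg
Vldlr: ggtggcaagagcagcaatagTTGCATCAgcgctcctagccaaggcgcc
Asns: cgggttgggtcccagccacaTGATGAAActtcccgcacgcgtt
Aars: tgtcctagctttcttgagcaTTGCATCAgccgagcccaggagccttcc
Tars: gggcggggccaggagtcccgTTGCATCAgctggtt
Got1: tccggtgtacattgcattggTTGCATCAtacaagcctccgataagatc

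The stretches lie at chr7:126625553-126625600 on the minus strand for *Nupr1*, chr1:191183416-191183463 on the minus strand for *Atf3*, chr2:119351029-119351076 on the plus strand for *Chac1*, chr12:85599363-85599410 on the plus strand for *Jdp2* and chr14:55540143-55540190 on the plus strand for *Pck2*. Those of *Vldlr* (chr19:27216800-27216847, plus strand), *Asns* (chr6:7693210-7693252, minus strand), *Aars* (chr8:111033710-111033757, plus strand), *Tars* (chr15:11399659-11399693, minus strand) and *Got1* (chr19:43524680-43524727, minus strand) are also upstream of the annotated start. In these stretches the element begins between 15 bases (*Tars*) and 200 bases (*Vldlr*) before the start.

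GSK-J4 treatment was accompanied by a higher level of stress and growth arrest genes. Genes for splicing, cell division and the heat shock chaperones of the cytosol and mitochondria had a lower level. On the scale log2((GSK-J4 FPKM + 1)/(DMSO FPKM + 1)), called the log2 ratio here, 456 genes (4.96%) lay at least 2-fold above their DMSO value in PBS+GSK-J4 and 322 genes (3.50%) lay at least 2-fold below it. The other 8418 genes differed by less. At 4-fold, 48 genes were higher and 6 were lower, and 5 genes were at least 8-fold higher. Over all expressed genes the log2 ratio had a median of -0.17, with quartiles of -0.49 and 0.20. The addition of 1 to each FPKM understates the difference of weakly expressed genes. Higher genes made up 58.6% of those at least 2-fold different, and 79.7% after the median log2 ratio was set to 0, 84.4% after division of each library by its upper quartile and 89.2% after scaling to the same total, which left 157, 125 and 98 lower genes. The median of all genes moved to 0.07 and 0.16 under the last 2 scalings, so each group of genes is given beside the median of all genes.

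**Figure D1:**
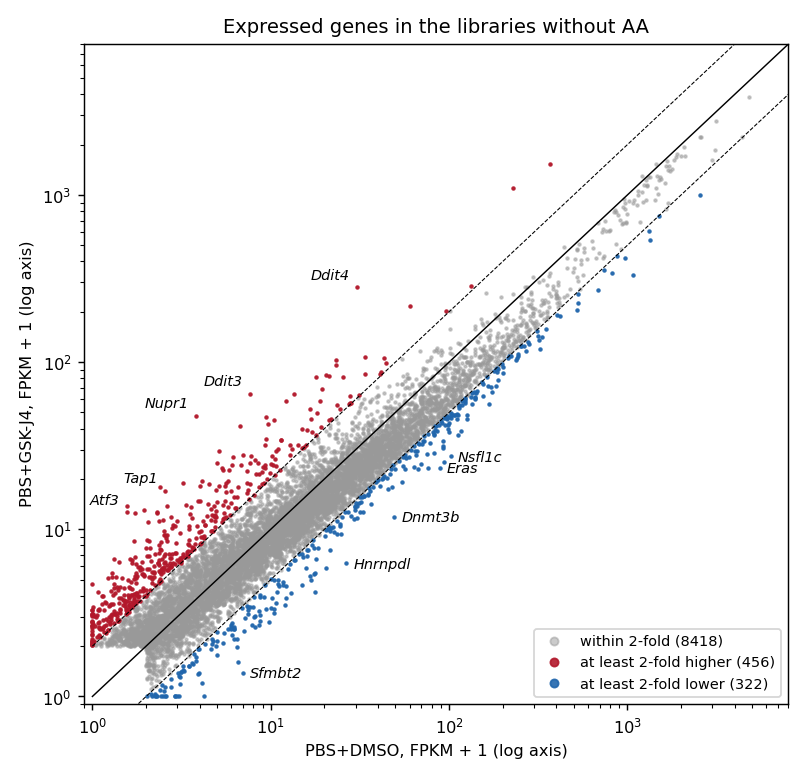
FPKM + 1 in PBS+DMSO (x axis) and PBS+GSK-J4 (y axis), both on log axes, with 1 point for each of 9196 genes. The solid line marks equal values and the dashed lines 2-fold differences. The 456 higher genes (red) lie mostly at low levels in DMSO and the 322 lower genes (blue) mostly at high levels.

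The higher genes were weakly expressed in the vehicle control, with a median of 1.42 FPKM in the DMSO library and 5.57 FPKM with GSK-J4. The lower genes had medians of 30.9 and 13.2 FPKM, and the remaining genes had a median of 9.85 FPKM in PBS+DMSO. This is in part set by the rule for inclusion, as the 555 genes under 1 FPKM in PBS+DMSO entered only through a higher value in PBS+GSK-J4. They hold 187 of the higher genes, and 49 lower genes likewise entered only through PBS+DMSO. Of the 8426 genes with at least 1 FPKM in both libraries, 269 (3.19%) were at least 2-fold higher and 273 (3.24%) were lower by as much. Among the 442 genes between 100 and 300 FPKM, 2 were higher and 63 (14.3%) were lower. The median log2 ratio was 0.12 between 1 and 3 FPKM, -0.06 between 3 and 10 FPKM, -0.29 between 10 and 30 FPKM, -0.50 between 30 and 100 FPKM and -0.68 between 100 and 300 FPKM. For most groups the median below is also given relative to genes of like level, an alternative added after the data were seen. For this, the running median over 301 genes was subtracted from each log2 ratio, with genes ordered by the mean log2(FPKM + 1) of both libraries.

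**Figure D2:**
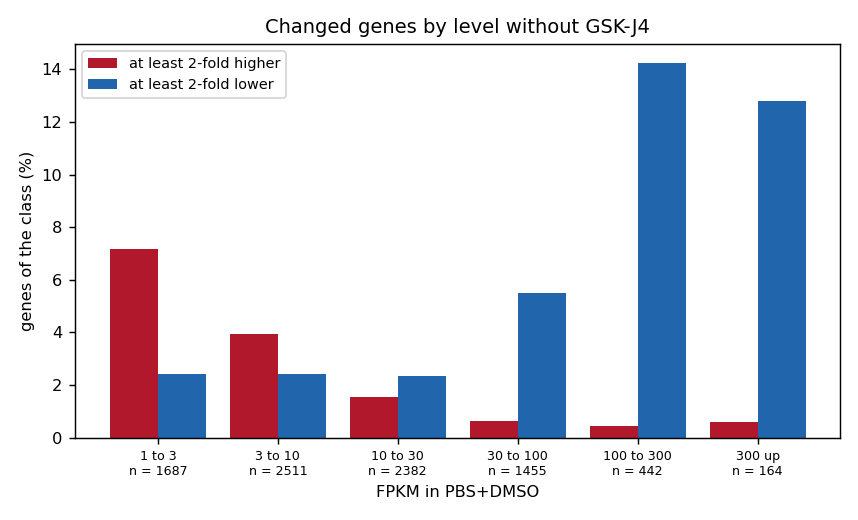
Share of genes at least 2-fold higher (red) or lower (blue) in PBS+GSK-J4 (y axis, percent), by FPKM class in PBS+DMSO (x axis, with the number of genes). The class under 1 FPKM is left out, as its genes entered only through PBS+GSK-J4, and a gene near 1 FPKM can hardly pass 2-fold downwards on this scale. The lower share is 14.3% between 100 and 300 FPKM, where the higher share is 0.452%.

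The 10 highest log2 ratios among genes with at least 5 FPKM in either library ranged from 2.61 to 3.65, and all 10 genes were also at least 2-fold higher in the libraries with AA. *Nupr1* (chr7:126623210-126625789 as given in the tables, mm10), a stress-induced chromatin protein, rose from 2.81 FPKM in PBS+DMSO to 46.9 in PBS+GSK-J4, with 3.73 and 60.7 FPKM in the pair with AA, a log2 ratio of 3.65. *Ddit4* (chr10:59949666-59951925), an inhibitor of the growth kinase mTORC1, rose from 29.4 FPKM to 279.8, a log2 ratio of 3.21, and the pair with AA had 20.7 and 201 FPKM. *Ddit3* (chr10:127290722-127311788), which encodes the stress factor CHOP, rose from 6.64 FPKM to 63.7, and *Atf3*, a partner in the same response, from 0.553 FPKM to 11.7. These 4 genes led the list together with *Sct*, which encodes the hormone secretin. *Sct* rose from 0.563 FPKM to 12.9, and the pair with AA had 1.54 and 10.7 FPKM. The keratinocyte gene *Sbsn* rose from 1.40 FPKM to 16.9, the thioesterase gene *Them5* from 0.734 FPKM to 11.6 and *Sytl1*, of a vesicle trafficking family, from 0.945 FPKM to 12.1. *Tap1* (chr17:34182086-34197213), a subunit of the transporter that loads peptides for MHC class I, rose from 1.55 FPKM to 16.1, and the membrane transporter gene *Slc4a11* from 5.75 FPKM to 40.3.

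The 10 lowest log2 ratios ranged from -2.33 to -1.80, and 7 of these 10 genes were also at least 2-fold lower with AA. *Sfmbt2* (chr2:10370445-10595250), an imprinted Polycomb-related gene needed for the placenta, fell from 5.98 FPKM in PBS+DMSO to 0.386 in PBS+GSK-J4, but the pair with AA had 4.63 and 2.997 FPKM. *Ebag9* fell from 5.57 FPKM to 0.606, where the pair with AA had 2.46 and 2.12 FPKM, and *Nsfl1c*, a cofactor of the p97 ATPase, fell from 101 FPKM to 26.4, where it had 64.1 and 37.7. These 3 genes are the ones less than 2-fold lower with AA. *Dnmt3b* (chr2:153649467-153687742), a de novo DNA methyltransferase, fell from 48.2 FPKM to 10.9, a log2 ratio of -2.05, and the AA pair had 39.9 and 7.38 FPKM (-2.29). *Hnrnpdl* (chr5:99955900-100068771), an RNA-binding protein gene, fell from 25.5 FPKM to 5.26, the splicing-associated gene *Arglu1* from 19.3 FPKM to 4.85 and *Gemin4*, of the complex that assembles spliceosomal snRNPs, from 8.77 FPKM to 1.79. *Mt3*, *Eras* and *Lin28a* are described with their groups.

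**Figure D3:**
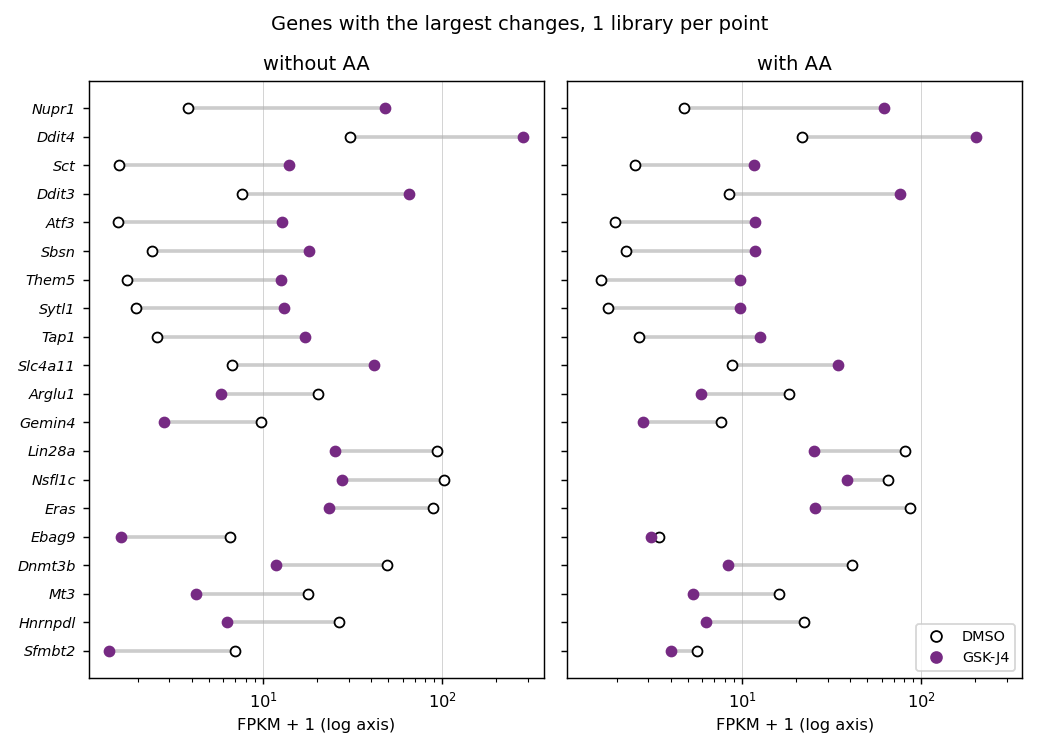
FPKM + 1 (x axis, log) of the 10 genes with the highest and the 10 with the lowest log2 ratio, in the libraries without AA (left) and with AA (right). Open points are DMSO and filled points GSK-J4, with 1 library per point. The 10 higher genes are separated in both panels, while *Ebag9*, *Sfmbt2* and *Nsfl1c* are closer together with AA.

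Effectors of the ATF4 and CHOP stress response were higher throughout. All 17 expressed members of this group had a positive log2 ratio, with a median of 1.17, and 10 were at least 2-fold higher against 4.96% of all genes. None was at least 2-fold lower. Of the 10 genes, *Atf3* and *Vldlr* were under 1 FPKM in PBS+DMSO. Of the 15 members with at least 1 FPKM in both libraries 8 were higher, against 3.19% of all such genes. The same 10 genes were at least 2-fold higher with AA, where 4.13% of all genes were. *Trib3*, a pseudokinase that feeds back on ATF4, rose from 4.10 FPKM in PBS+DMSO to 28.2 in PBS+GSK-J4, and *Chac1*, which degrades glutathione, rose from 4.41 FPKM to 21.6. Besides these, *Stc2* rose from 3.51 FPKM to 17.6, *Jdp2* from 4.62 FPKM to 17.8, *Vldlr* from 0.195 FPKM to 1.69 and *Sesn2* from 39.8 FPKM to 84.1. *Atf4* itself was at 159 FPKM with DMSO and 257 FPKM with GSK-J4, a log2 ratio of 0.69 and below 2-fold. *Ppp1r15a*, which encodes the GADD34 subunit that reverses eIF2 phosphorylation, was at 16.0 and 21.6 FPKM. *Eif4ebp1*, a repressor of cap-dependent translation, had the lowest value of the group, 0.18, and -0.04 with AA. 

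Enzymes and transporters for amino acids were higher in part. Of 17 expressed enzymes of amino acid synthesis and one-carbon metabolism, 5 were at least 2-fold higher, against 4.96% of all genes. None was lower by as much, and the median log2 ratio was 0.59. Of the 16 with at least 1 FPKM in both libraries 4 were higher. *Pck2*, a mitochondrial enzyme that makes phosphoenolpyruvate, rose from 5.55 FPKM to 17.0, *Cth* and *Cbs*, the enzymes that make cysteine from homocysteine, rose from 26.9 FPKM to 62.1 and from 4.78 FPKM to 12.5, and asparagine synthetase (*Asns*) rose from 30.2 FPKM to 62.8. *Aldh1l2* rose from a low level, from 0.546 FPKM to 2.29. In the same group the aminotransferase *Got1* was at 102 and 67.8 FPKM, a log2 ratio of -0.58. Of 11 expressed amino acid transporters, 4 were at least 2-fold higher and 0 lower, with a median of 0.59. The glycine transporter *Slc6a9* rose from 1.11 FPKM to 6.76, *Slc38a7* from 7.16 FPKM to 24.8, the neutral amino acid transporter *Slc1a4* from 3.70 FPKM to 11.2 and the arginine transporter *Slc7a1* from 7.05 FPKM to 15.1. *Slc38a7* and *Slc7a1* were less than 2-fold higher with AA, at log2 ratios of 0.86 and 0.46.

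Cytosolic aminoacyl-tRNA synthetases, which charge tRNAs and include further ATF4 targets, did not share this direction. Their median was -0.18 over 18 genes, at the median of all genes, and it was 0.10 after upper-quartile scaling and 0.20 after scaling to the same total. *Cars* rose from 17.0 FPKM to 35.6 and was the 1 member past 2-fold. *Aars* and *Gars* had log2 ratios of 0.36 and 0.16, and *Rars* and *Kars* had -0.95 and -0.97. Relative to genes of like level, 13 of the 18 were above and the median was 0.36.

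The C/EBP-ATF element was present in the 300 bases around the start (250 before and 50 after) of 6 of 18 promoters of the ATF4 and CHOP group (33.3%), 3 of 16 of the amino acid enzymes (18.8%), 1 of 10 of the transporters and 5 of 11 of the tRNA synthetases (45.5%). Among all expressed genes it was in 183 of 8916 promoters (2.05%), and in 3.97% of the 32851 promoters of the table. For genes at least 2-fold higher the share was 4.73% (21 of 444), for genes at least 4-fold higher 9.30% (4 of 43) and for genes at least 2-fold lower 1.73% (6 of 346). Of the 456 higher genes 187 entered only through PBS+GSK-J4, and these shares were not compared among genes of like level. Across the 4 groups, 9 of 15 genes with the element were at least 2-fold higher, with log2 ratios from -0.58 to 3.65. Of these 9, *Atf3* and *Vldlr* entered only through PBS+GSK-J4. The groups differed, as the tRNA synthetase genes with the element ranged from -0.31 (*Tars*) to 0.36 (*Aars*). Those of the ATF4 and CHOP group ranged from 1.17 (*Vldlr*) to 3.65. Of 31 genes without the element, 8 were at least 2-fold higher, *Ddit3* and *Ddit4* among them. The sequences above show both cases, with the element at *Nupr1* (log2 ratio 3.65) and at *Got1* (-0.58). A gene can have several promoters in the table. A promoter was found for 7062 of the 9196 genes, and a match is a description of these letters, not of binding.

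Targets of p53, the factor that halts the cell cycle and promotes cell death after damage, were higher as well. Of 22 expressed targets 10 were at least 2-fold higher, against 4.96% of all genes, and 0 were lower by as much. The median log2 ratio was 0.90, and 9 of the 10 were also at least 2-fold higher with AA. Of the 20 targets with at least 1 FPKM in both libraries 8 were higher, against 3.19% of all such genes. *Mdm2* (ubiquitin ligase of p53) rose from 59.7 FPKM in PBS+DMSO to 217 in PBS+GSK-J4, where the pair with AA had 54.1 and 195 FPKM. *Btg2*, an antiproliferative gene, rose from 22.1 FPKM to 95.3, *Plk2* from 19.4 FPKM to 82.4 and *Perp*, a desmosome and apoptosis gene, from 22.3 FPKM to 102. The death receptor gene *Fas* rose from a low level, from 0.288 FPKM to 4.46. Among the cell cycle and repair targets, *Trp53inp1* rose from 32.7 FPKM to 106, *Ccng1* from 94.7 FPKM to 200.1, *Polk* from 4.47 FPKM to 11.6 and *Ddb2* from 0.75 FPKM to 4.10. *Ddb2* was the one less than 2-fold higher with AA, at 2.20 and 4.49 FPKM. The pro-apoptotic genes *Bbc3* and *Pmaip1*, which encode PUMA and NOXA, were just under 2-fold, at log2 ratios of 0.98 and 0.82. *Bax* went the other way, with 186 and 138 FPKM, a log2 ratio of -0.43. In the BCL2 family as a whole, 1 of 14 genes (*Hrk*, from 0.216 FPKM to 1.51) passed 2-fold, and the survival genes *Mcl1* and *Bcl2l1* had -0.05 and -0.01.

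**Figure D4:**
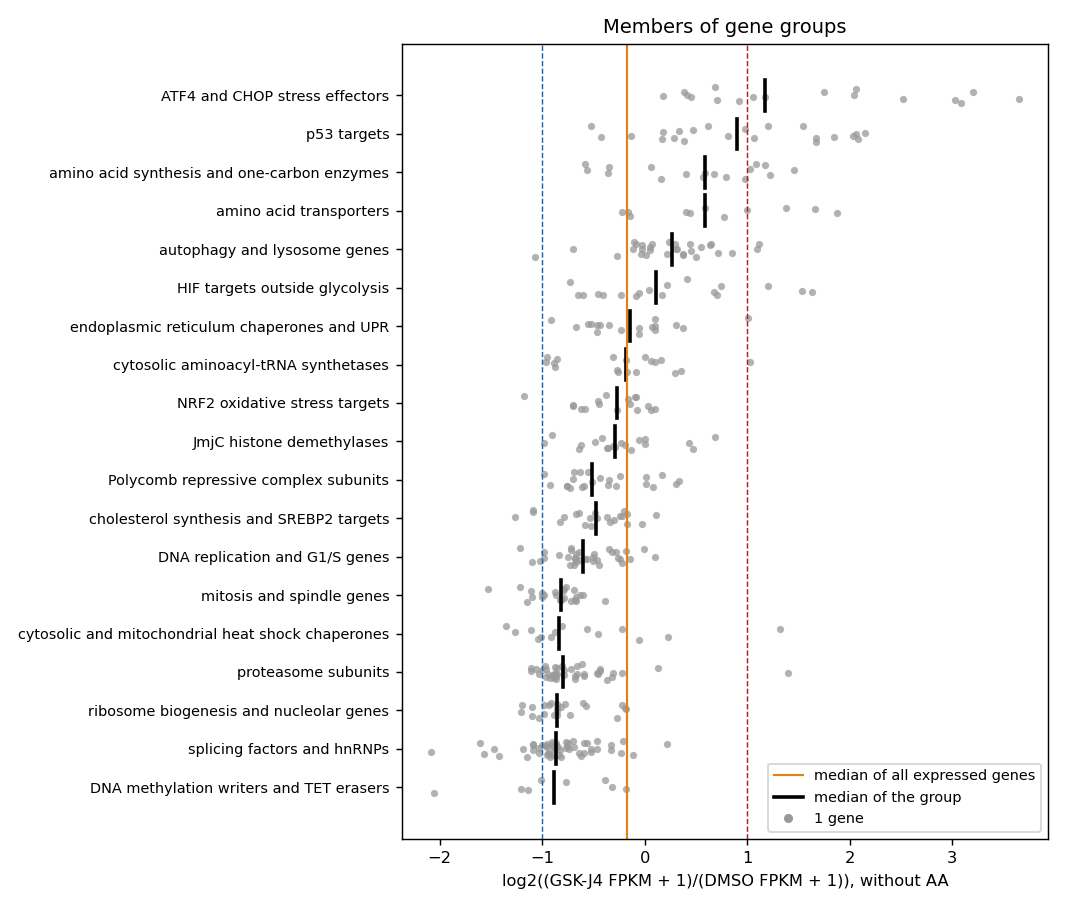
Log2 ratio of GSK-J4 to DMSO without AA (x axis) for the expressed members of 19 gene groups (y axis). Each point is 1 gene, the black bar is the median of the group, the orange line is the median of all expressed genes (-0.17), and the dashed lines mark 2-fold. The ATF4 and CHOP group (median 1.17) and p53 targets (0.90) lie to the right, and splicing factors (-0.87) and DNA methylation genes (-0.89) to the left.

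Other stress responses differed from these. Of 18 expressed chaperones and other genes of the endoplasmic reticulum, 1 was at least 2-fold higher, *Herpud1*, a gene of protein degradation at that membrane, which rose from 10.3 FPKM to 21.7. *Hspa5*, the main chaperone of this compartment (BiP), was at 249 and 132 FPKM, a log2 ratio of -0.91, and *Xbp1*, a transcription factor of the unfolded protein response, had -0.56. The median of the group was -0.15, close to that of all genes, and it was above 0 under each of the 3 scalings (0.03 to 0.22). Of 17 expressed targets of NRF2, the regulator of antioxidant genes, 0 were at least 2-fold higher and 1 was lower, *Pir*, which fell from 23.4 FPKM to 9.80. *Nqo1*, *Srxn1* and *Gclm* had log2 ratios of 0.06, 0.10 and -0.70, and the median of -0.27 turned to 0.02 after upper-quartile scaling and 0.12 after scaling to the same total.

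Cytosolic and mitochondrial heat shock chaperones were lower. Of 14 expressed genes 5 were at least 2-fold lower, against 3.50% of all genes, and the median log2 ratio was -0.84. After centring on the median, upper-quartile scaling and scaling to the same total 2, 1 and 0 were. *Hspa8*, the constitutive Hsp70, fell from 2552 FPKM in PBS+DMSO to 997 in PBS+GSK-J4, the mitochondrial chaperonin *Hspd1* fell from 821 FPKM to 340.2, and *Hsph1* and *Dnaja1*, cofactors of Hsp70, fell from 69.4 FPKM to 31.5 and from 122 FPKM to 58.9. *Hsp90aa1*, an Hsp90 isoform, fell from 1502 FPKM to 745. With AA *Hspa8* and *Hspd1* were at least 2-fold lower, and *Hsph1*, *Dnaja1* and *Hsp90aa1* had log2 ratios of -0.95, -0.86 and -0.72. The small heat shock protein gene *Hspb8* went the other way and rose from 9.52 FPKM to 25.3. Relative to genes of like level the median was -0.29, and 9 of the 14 genes were below. The heat shock element (GAANNTTC, both strands) was in 8 of 15 promoters of the group (53.3%) and in 5.46% of those of all expressed genes.

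Metallothioneins, which bind zinc and copper, went both ways. *Mt1* rose from 228 FPKM in PBS+DMSO to 1099 in PBS+GSK-J4, where the pair with AA had 279 and 1309 FPKM. *Mt2* rose from 365 FPKM to 1528, where the pair with AA had 462 and 1877 FPKM. *Mt2* was the 1 gene at least 2-fold higher among the 164 genes with 300 FPKM or more in PBS+DMSO. *Mt3* (chr8:94152716-94154134), a member best known from brain, fell from 16.7 FPKM to 3.22, where the pair with AA had 15.1 and 4.36 FPKM. The zinc exporter *Slc30a1* was at 7.92 and 11.7 FPKM, and *Mtf1*, which encodes the metal-sensing transcription factor, at 2.45 and 2.08. The zinc importer gene *Slc39a10* fell from 16.8 FPKM to 4.47.

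Genes of splicing, ribosome biogenesis and cell division were lower in part. Of 55 expressed splicing factors and hnRNPs 12 were at least 2-fold lower and 0 higher, against 3.50% and 4.96% of all genes. The median log2 ratio was -0.87 (-0.31 relative to genes of like level), and 7 of the 12 were at least 2-fold lower with AA. Under the 3 scalings 6, 5 and 5 of the 55 were at least 2-fold lower. *Srsf3*, *Srsf7* and *Srsf2*, serine and arginine rich splicing factors, fell from 321 FPKM to 119, from 124 FPKM to 44.4 and from 92.0 FPKM to 30.5, and *Snrpa1*, a component of the U2 snRNP, fell from 111 FPKM to 35.8. All 23 genes of ribosome biogenesis were below the median of all genes, and 5 were at least 2-fold lower, such as the RNA helicase *Ddx21* (from 139.6 FPKM to 60.2) and the nucleolar protein *Nolc1* (from 165 FPKM to 70.7). Their median was -0.85 (-0.39 relative to genes of like level), and the number lower became 2 after centring and 0 under the other scalings. All 26 genes of mitosis and the spindle were also below it, with a median of -0.82 (-0.43 relative to genes of like level), and 6 were at least 2-fold lower, 2 of them with AA as well. The 6 became 2 after centring and 1 under each of the other scalings. *Plk1*, a kinase of mitotic entry, fell from 81.7 FPKM to 27.7, *Aurka* from 81.2 FPKM to 36.2 and *Cdk1* from 56.4 FPKM to 25.5. The CCAAT box (CCAAT, both strands) was in 20 of 25 promoters of the mitosis group (80.0%) and in 38.2% of those of all expressed genes. Among 34 genes of DNA replication and the G1/S transition 3 were at least 2-fold lower (median -0.61, and -0.10 relative to genes of like level), with *Ccne1*, cyclin E1, from 139 FPKM to 59.3, and *Ccnd3*, cyclin D3, from 200.1 FPKM to 92.9, while the *Mcm2* helicase subunit had -0.67. After centring 1 of the 34 was at least 2-fold lower, and 0 under the other scalings.

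Proteasome subunits had a median of -0.80 over 40 genes (-0.23 relative to genes of like level). Of the 40, 5 were at least 2-fold lower and 1 higher, against 3.50% and 4.96% of all genes. Under each of the 3 scalings 0 were lower. The higher one was *Psmb9* (from 0.671 FPKM to 3.40), a subunit of the immunoproteasome whose locus in the tables is the same as that of *Tap1*. *Psmd1* and *Psmd3*, of the regulatory particle, fell from 141 FPKM to 64.7 and from 122 FPKM to 56.1. Cytosolic ribosomal proteins, the most highly expressed group (median 988 FPKM in PBS+DMSO), had a median of -0.24 with 1 of 70 genes at least 2-fold lower, and the median was 0.05 after upper-quartile scaling 0.15 after scaling to the same total and 0.24 relative to genes of like level. The 66 mitochondrial ribosomal proteins had a median of -0.54 (-0.19 relative to genes of like level) and the 50 translation factors of -0.58 (-0.08), among which *Eif4e* and *Eif4a1*, parts of the cap-binding complex, fell from 84.8 FPKM to 37.7 and from 1325 FPKM to 609.7. Oxidative phosphorylation subunits had a median of -0.43 over 72 genes, which was 0.09 relative to genes of like level, with 0 at least 2-fold lower.

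Metabolic genes had smaller differences. Of 22 genes of cholesterol synthesis and its regulation 3 were at least 2-fold lower and 0 higher, against 3.50% and 4.96% of all genes. The median was -0.47 (-0.15 relative to genes of like level), and 1, 0 and 0 were lower under the 3 scalings. *Fdps*, farnesyl diphosphate synthase, fell from 77.5 FPKM to 31.7, and *Ebp*, a sterol isomerase, fell from 80.1 FPKM to 37.2. None of 16 glycolytic genes passed 2-fold, with *Pgam1* at -0.87 and *Ldhb* at 0.94, and the median was -0.48 (-0.01 relative to genes of like level). Autophagy and lysosome genes were higher than most genes, 27 of 30 above the median of all genes, with a median of 0.27. *Ctsd*, cathepsin D, rose from 132 FPKM to 283 and *Wipi1*, a protein of autophagosome formation, rose from 2.17 FPKM to 5.86. *Tfeb*, a transcription factor of lysosomal genes, fell from 23.9 FPKM to 10.9. The 18 HIF targets outside glycolysis had a median of 0.11 (0.10 relative to genes of like level). Over the 16 with at least 1 FPKM in both libraries the median was -0.005. Of the 18, 3 were at least 2-fold higher, 2 of them with AA as well, against 4.96% of all genes. These were the collagen-modifying hydroxylase genes *Plod2* (from 18.0 FPKM to 57.9) and *P4ha2* (from 2.50 FPKM to 7.04) and the angiogenic factor gene *Vegfa* (from 3.79 FPKM to 12.8), while *Pdk1* had a log2 ratio of -0.73 and *Egln3* of 0.05. The drug efflux pump gene *Abcb1b* rose from 8.35 FPKM in PBS+DMSO to 45.9 in PBS+GSK-J4, and *Abcg2*, another efflux pump, was at 13.1 and 7.85 FPKM.

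GSK-J4 is directed at JmjC enzymes, and their transcripts were examined next. Of 19 expressed JmjC genes 0 passed 2-fold, and the median of -0.29 was -0.04 after upper-quartile scaling and 0.06 after scaling to the same total. *Kdm4c*, a demethylase of H3 lysine 9, was closest, at 23.1 and 11.2 FPKM (log2 ratio -0.98), followed by *Mina* at 30.3 and 15.7 FPKM (-0.90). *Kdm2b*, which recruits a Polycomb complex to CpG islands, was at 22.9 and 14.3 FPKM. *Kdm5b* and *Kdm5c*, demethylases of H3 lysine 4, had log2 ratios of -0.37 and -0.31, and *Kdm3a*, a demethylase of H3 lysine 9, had -0.23. *Jmjd4*, *Phf8* and *Kdm7a* had the highest values, 0.69, 0.47 and 0.43, and for *Jmjd4* and *Phf8* the pair with AA had the other sign (-0.73 and -0.57). These 3 were under 4 FPKM in both libraries without AA. Values for the genes of Utx and Jmjd3 themselves were not analysed here.

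Among 23 Polycomb genes 0 passed 2-fold, with a median of -0.51 (-0.09 relative to genes of like level). *Ezh2*, the methyltransferase of PRC2, was at 71.4 and 37.1 FPKM (-0.93), *Eed* at 69.9 and 40.9 (-0.76) and *Suz12* at 58.7 and 43.0 (-0.44). The lowest value was that of *Phf19*, an accessory factor of PRC2, at 4.86 and 1.97 FPKM. DNA methylation genes stood lower, with 4 of 8 at least 2-fold lower, against 3.50% of all genes. Their median was -0.89 (-0.48 relative to genes of like level), and 2 were lower under each of the 3 scalings. *Tet3* entered only through PBS+DMSO. Of the 7 with at least 1 FPKM in both libraries 3 were lower, with a median of -0.77. With AA the median of the group was -0.33, and 1 of the 4, *Dnmt3b*, was at least 2-fold lower there. *Dnmt3l*, the cofactor of the de novo enzymes, fell from 82.3 FPKM to 40.4, where with AA it was at 47.1 and 28.4. *Mbd3*, of the NuRD complex, fell from 58.7 FPKM to 26.1, where with AA it was at 41.4 and 32.5, and *Tet3* fell from 1.30 FPKM to 0.000548, where with AA it was at 1.18 and 0.891. *Dnmt1*, the maintenance enzyme, was at 84.6 and 67.8 FPKM (-0.32). The AA+DMSO library thus held less *Dnmt3l* than the PBS+DMSO library.

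**Figure D5:**
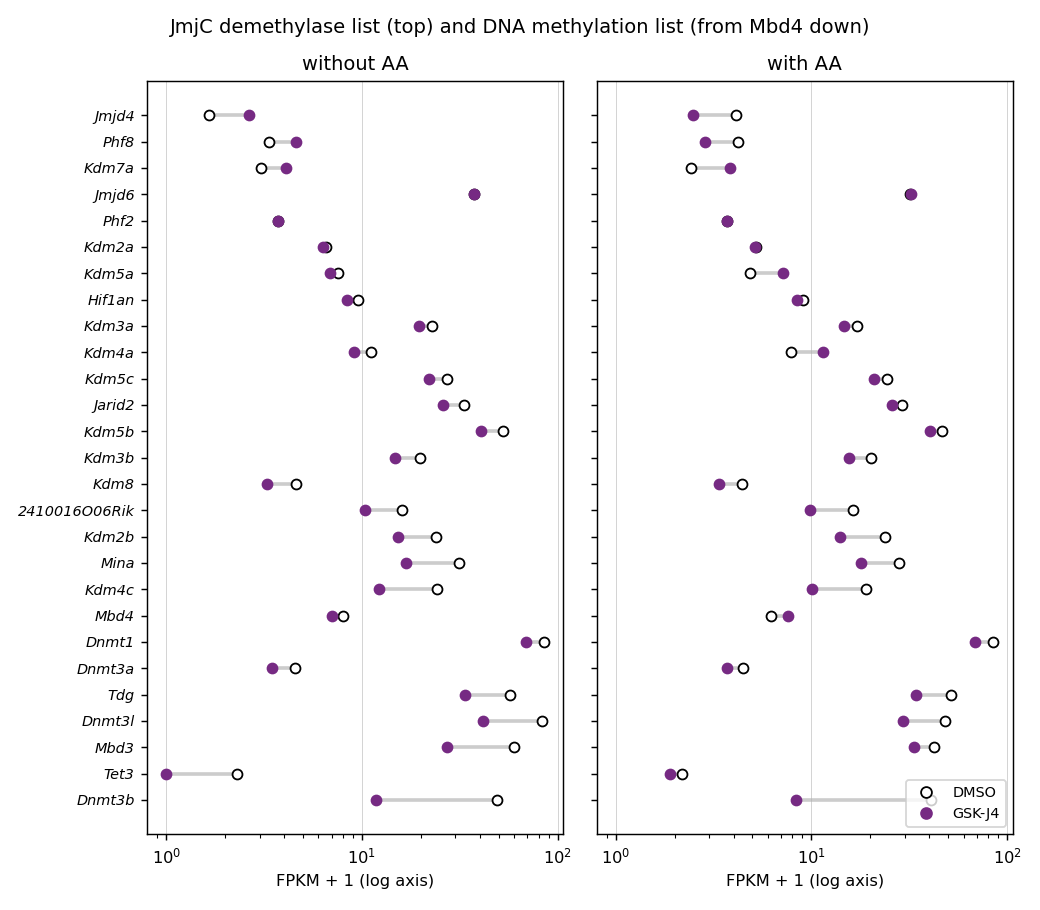
FPKM + 1 (x axis, log) of 19 JmjC genes and, from *Mbd4* down, 8 DNA methylation genes, without AA (left) and with AA (right). Open points are DMSO and filled points GSK-J4, 1 library each. The JmjC genes are all less than 2-fold apart without AA, and *Dnmt3b* is widely separated in both panels.

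The labelled cell type was checked against markers. Of 8 ESC markers 7 had a value and all 7 were at 55.2 FPKM or more in PBS+DMSO, with a sum of 2124 FPKM with DMSO and 1311 FPKM with GSK-J4. *Zfp42* had a failed estimate. The feeder fibroblast markers with a value, 6 of 10, summed to 38.0 and 62.2 FPKM, and to 37.3 and 54.7 FPKM with AA, and none was at 0. The 1 primitive endoderm marker with a value, *Sox7*, was at 1.61 and 0.867 FPKM and the 1 neural marker, *Pax6*, at 1.44 and 0.176. The 2 mesoderm markers summed to 1.95 and 2.57 FPKM, and no trophoblast marker had a value.

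Genes of collagen and matrix were also higher than most genes. Of 16 expressed members 14 lay above the median of all genes, with a median of 0.33 and 0 past 2-fold. *Thbs1*, thrombospondin, was at 8.80 and 17.7 FPKM and the crosslinking enzyme gene *Lox* at 2.57 and 5.19. The smooth muscle genes *Tagln* and *Acta2*, which mark fibroblasts, were at 14.4 and 26.8 FPKM and at 12.9 and 21.4 FPKM. The other feeder markers with a value, besides *Lox*, did not all go this way. *Col1a1* was at 2.83 and 4.28 FPKM, *Col1a2* at 2.46 and 2.76 and *Thy1*, which was lower, at 2.79 and 1.82. A part of the feeder cells in the matrix values was not tested. In a bulk library more cells of a type and more RNA per cell cannot be told apart.

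Of 15 expressed core and naive pluripotency factors 0 passed 2-fold. Of these, 14 had a negative log2 ratio and 13 lay below the median of all genes. Their median was -0.52 (-0.08 relative to genes of like level), with *Pou5f1* at -0.76, *Nanog* at -0.75 and *Klf5* highest at 0.03. Some genes of the formative state and of the FGF pathway did pass 2-fold. Of 12 formative genes 7 were at least 2-fold lower, *Dnmt3b* among them, against 3.50% of all genes. The median of the 12 was -1.10 (-0.69 with AA), and 5 were at least 2-fold lower under each of the 3 scalings. *Otx2*, a factor of the transition from the naive state, fell from 16.6 FPKM to 4.40, and *Tcf15* fell from 36.5 FPKM to 16.9. *Grhl2* fell from 3.72 FPKM to 1.15, where with AA it was at 1.42 and 1.51. *Cdh2*, N-cadherin, was highest at 0.36. Of 17 markers of the stem cell state 5 were at least 2-fold lower with a median of -0.80, and the same 5 genes with AA. Under the 3 scalings 5, 5 and 3 were. *Trim28*, a corepressor of endogenous retroviruses, fell from 682 FPKM to 269.6, *Dppa3*, which shields the maternal genome from demethylation, from 35.5 FPKM to 13.2, and the ESC-specific Ras gene *Eras* and the RNA-binding protein gene *Lin28a* fell to 22.2 and 24.2 FPKM from 87.7 and 92.4. The FGF-ERK group had a median of -0.22, close to that of all genes and positive after upper-quartile scaling (0.01) and scaling to the same total (0.10). Of its 19 genes 5 were at least 2-fold lower and 2 higher, against 3.50% and 4.96% of all genes. The 2 higher genes entered only through PBS+GSK-J4. Of the 17 with at least 1 FPKM in both libraries 5 were lower and 0 higher. The 5 became 2 under each of the 3 scalings, and over members with at least 5 FPKM in either library the median minus that of all genes was -0.61. The feedback inhibitors *Spry4* and *Dusp6* fell from 21.4 FPKM to 9.35 and from 15.0 FPKM to 6.54, and *Myc* fell from 15.3 FPKM to 6.49. The AP-1 genes *Fosl1* and *Fos* rose from 0.401 FPKM to 5.39 and from 0.702 FPKM to 3.12, and *Jun* rose from 2.47 FPKM to 7.63. In the BMP and Nodal group (20 genes) 3 rose and 1 fell past 2-fold. Of the 18 with at least 1 FPKM in both libraries 1 was higher and 1 lower. *Nodal*, a ligand of the TGF-beta family, rose from 42.0 FPKM to 105 and *Bmp7* from 0.436 FPKM to 3.54, while *Bmp4* fell from 15.5 FPKM to 4.26.

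Genes of neural development had the lowest median of the groups, -1.22 over 12 expressed genes (-0.87 with AA). Of these, 7 were at least 2-fold lower and 2 higher, against 3.50% and 4.96% of all genes. Of the 10 with at least 1 FPKM in both libraries 6 were lower and 1 higher. Under each of the 3 scalings 6 of the 12 were lower and 3 higher. The group shares *Otx2*, *Zic2* and *Zic5* with the formative genes and *Etv1* and *Gbx2* with the FGF-ERK group. *Etv1* and *Gbx2*, transcription factor genes, fell from 9.01 FPKM to 2.36 and from 9.68 FPKM to 2.61, and *Zic2*, a zinc finger gene, fell from 7.59 FPKM to 2.25. *Neurod1*, a proneural factor, rose from 3.01 FPKM to 13.8, and the other higher gene was *Nkx2-2*. Of 31 developmental transcription factor genes 6 were at least 2-fold higher and 1 (*Pax6*) was lower. Of the 22 with at least 1 FPKM in both libraries 3 were higher, against 3.19% of all such genes. *Nkx2-9* (from 2.92 FPKM to 13.9), *Nkx2-2* (from 0.0731 FPKM to 2.28) and *Foxj1* (from 1.56 FPKM to 6.07), factors of ventral neural and ciliated cells, were highest among them.

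Imprinted genes went both ways, and germline genes past 2-fold were higher. Among 12 imprinted growth genes, *Grb10* rose from 3.23 FPKM to 8.17 and *Sgce* from 1.77 FPKM to 5.004, while *Mest* fell from 96.6 FPKM to 44.5. Of 14 germline genes 2 were at least 2-fold higher and 0 lower, against 4.96% and 3.50% of all genes. Of the 11 with at least 1 FPKM in both libraries 1 was higher. *Taf7l* rose from 2.07 FPKM to 5.33, and *Piwil2*, which entered only through PBS+GSK-J4, rose from 0.00686 FPKM to 1.70. *Ddx4* and *Dazl* had log2 ratios of -0.12 and 0.21. Of 7 two-cell-like genes, *Dux* alone passed 2-fold (from 0.382 FPKM to 2.02), and all 7 were weakly expressed. The 349 genes of the X chromosome had a median log2 ratio of -0.17, as did the 8843 autosomal genes, and 13 (3.72%) were at least 2-fold higher and 18 (5.16%) were lower by as much, against 4.96% and 3.50% of all genes.

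Promoters of the higher genes held fewer CpGs. The median ratio of observed to expected CpG in the 300 bases around the start was 0.628 for genes at least 2-fold higher (444 promoters), 0.779 for genes at least 2-fold lower and 0.781 for the remaining genes. Within genes under 3 FPKM in PBS+DMSO the medians were 0.591 for higher genes, 0.636 for lower genes and 0.700 for the remaining ones. In this class, which includes genes that entered only through PBS+GSK-J4, the 23 promoters of genes at least 4-fold higher had 0.286. Between 3 and 30 FPKM the medians were 0.703, 0.734 and 0.790, so lower genes also lay below the remaining ones in both classes. At 30 FPKM or more they were 0.746 (12 promoters), 0.846 and 0.829. The TATA box (TATAAA, both strands) was in 7.43% of the promoters of higher genes, 8.38% of lower genes and 6.25% of the rest.

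The pair of libraries with AA gave, of 9139 genes, 377 (4.13%) that were at least 2-fold higher and 309 (3.38%) that were lower by as much. Of the 456 genes higher without AA 283 (62.1%) were at least 2-fold higher with AA as well, and 433 had the same sign. Of the 322 lower genes 165 (51.2%) were at least 2-fold lower with AA and 301 had the same sign. In 6 higher and 3 lower genes the pair with AA was at least 2-fold different the other way. Among the genes at least 2-fold different without AA, 13 higher genes are listed at 0 in PBS+DMSO and 4 lower genes at 0 in PBS+GSK-J4, and no fold is given for these.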

How the data were processed

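RNA from LF2 ESCs was sequenced in 4 libraries, 1 per condition. Per the labels and the methods of the study, single-end reads were stripped of duplicates, aligned with TopHat2 (mm10 in the submitters' processing notes) and turned into FPKM with Cufflinks2. The authors deposited 2 tables of FPKM per coding sequence group, in columns headed as log10 that hold linear values. The column headed AA_DMAO was read as AA+DMSO. The scaling that the authors applied between libraries is not given in the sources used here. Duplicate removal can lower the values of abundant genes. The tables also hold the fold changes, p-values, q-values and calls of the authors, which were not used.

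FPKM was summed over the 11033 coding sequence groups per gene name. Failed estimates removed 157 genes, and another 583 were left out as they were under 1 FPKM in both libraries without AA. The log2 ratio used a pseudocount of 1, and genes past 2-fold were counted, with no test. Calculations used pandas 2.3.3 and numpy 2.4.6 in Python 3.11.15, and figures matplotlib 3.10.9, and the steps were tested on simulated data. Read counts and strand are not in the tables, so the depth is unknown. Whole-read steps in 1498 genes of low level put PBS+GSK-J4 at 0.513, 0.427 or 0.642 of the depth of PBS+DMSO (67, 65 and 64 genes on the steps, against a median of 28 over the ratios tried), which does not settle the ratio. Genes that share sequence with copies elsewhere or overlap a neighbour (actins, heat shock genes, *Dux*) are uncertain. Gene coordinates are the loci of the tables, which can span neighbours.

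The 48 gene groups and the rule for named genes were chosen with earlier results of these data known. Named are the 10 highest and lowest log2 ratios with at least 5 FPKM in either library, up to 5 members of each group by size and the one furthest the other way, all JmjC genes and the cell type markers. Genes outside this rule, chosen with their values in view, are *Aars*, *Atf4*, *Bax*, *Bcl2l1*, *Ccng1*, *Chac1*, *Dazl*, *Ddb2*, *Ddx4*, *Dnmt1*, *Dusp6*, *Egln3*, *Eif4ebp1*, *Gars*, *Grhl2*, *Hsp90aa1*, *Jdp2*, *Mcl1*, *Mcm2*, *Nqo1*, *Polk*, *Ppp1r15a*, *Sesn2*, *Spry4*, *Stc2*, *Suz12*, *Tars*, *Tcf15*, *Trp53inp1* and *Vldlr*. Alternatives were pseudocounts of 0.1 and 5, other filters, centring on the median, scaling by the upper quartile or to the same total, 1.5-fold and 4-fold thresholds, and, added after the data were seen, removal of the trend with expression.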

Additional observations from a re-analysis of the deposited data

Results flagged for a closer look

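Of the genes named by the rule or in the text, 3 were past 2-fold without AA and had the other sign with AA. *Foxn3*, a forkhead gene, rose from 0.442 to 2.86 FPKM without AA, where the pair with AA had 1.29 and 1.19 FPKM, a log2 ratio of -0.0633. *Zfp446* fell from 1.56 to 3e-05 FPKM without AA, where the pair with AA had 1.31 and 1.65 FPKM, a log2 ratio of 0.196. *Grhl2*, described above, was the other, with a log2 ratio of 0.0547 with AA. All are weakly expressed and each value rests on 1 library, and the difference between the pairs was not tested.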

How the results depend on the processing

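No paired analysis was possible because there is 1 library per condition, and for the same reason no replicate could be left out. The number of genes at least 2-fold higher (456) became 746 with a pseudocount of 0.1, 112 with 5, 253 for genes with at least 5 FPKM in either library, 269 for at least 1 FPKM in both, 807 after scaling to the same total, 1063 at 1.5-fold and 48 at 4-fold. The number at least 2-fold lower (322) became 509 with a pseudocount of 0.1, 136 with 5, 157 after centring, 125 after upper-quartile scaling, 98 after scaling to the same total, 1775 at 1.5-fold, 6 at 4-fold and 199 with the trend removed. The share of higher genes (58.6%) was 45.2% with a pseudocount of 5, 48.9% and 49.6% under the filters of 5 FPKM in either and 1 FPKM in both libraries, 79.7%, 84.4% and 89.2% under the 3 scalings, 37.5% at 1.5-fold, 88.9% at 4-fold and 69.9% with the trend removed. With the trend removed the group medians relative to all genes of the two-cell-like (-0.0572), oxidative phosphorylation (0.0896) and Hox (-0.128) groups changed sign. With these 3 included, 17 of 47 group medians moved by over 0.25. Some groups nearer the median of all genes also changed sign, among them the tRNA synthetases (from -0.0039 to 0.36) and NRF2 targets (from -0.094 to 0.11). Unknown depth and low values limit genes under a few FPKM most.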

Other observations

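Families chosen after their values were seen gave further differences. Of 7 genes with a value for MHC class I presentation 3 were at least 2-fold higher, against 4.96% of all genes, and 6 lay above the median of all genes. Of the 5 with at least 1 FPKM in both libraries 1 was. *Tap1* and *Psmb9* are described above. *Nlrc5*, a transactivator of class I genes, rose from 0.0852 FPKM to 1.57, the light chain gene *B2m* was at 16.1 and 33.0 FPKM, and the heavy chain genes *H2-K1* and *H2-D1* were at 2.01 and 4.73 FPKM and at 5.56 and 8.95 FPKM. *Psmb10* lay below it, at 15.8 and 8.13 FPKM. Of 7 keratin genes with a value 4 were under 1 FPKM in PBS+DMSO, entered only through PBS+GSK-J4 and were at least 2-fold higher, and of the other 3 none was. *Krt19* rose from 0.891 FPKM to 5.38, *Krt13* from 0.771 FPKM to 3.19, *Krt5* from 0.0951 FPKM to 1.79 and *Krt15* from 0.192 FPKM to 1.41, while *Krt8* was at 3.37 and 3.44 FPKM.

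Among potassium channel subunits 2 of 15 were at least 2-fold higher and 1 lower, against 4.96% and 3.50% of all genes. Of the 9 with at least 1 FPKM in both libraries 1 was higher and 0 were lower. The cytoplasmic actin genes *Actg1* and *Actb* fell from 1067 FPKM in PBS+DMSO to 329 in PBS+GSK-J4 and from 963 FPKM to 417, and both were also at least 2-fold lower with AA, while the smooth muscle actins *Acta2* and *Actg2* had log2 ratios of 0.68 and 0.41. Of 8 tubulin genes 1, *Tubb2b*, was at least 2-fold lower (from 28.7 FPKM to 12.1), and *Tubb6* was the 1 above the median of all genes (0.54).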
